A study of Macaca fascicularis with 6 samples.

Results

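The genes described here, 10 members of the cyclic AMP (cAMP) and CREB axis, were followed across cynomolgus monkey cells, from pluripotent stem cells to cartilage and repair tissue in the knee. They were chosen by name and comprise the orphan nuclear receptors *NR4A1*, *NR4A2* and *NR4A3*, the transcription factors *CREB1* and *CREM*, the cAMP phosphodiesterase *PDE4D*, the salt-inducible kinases *SIK2* and *SIK3*, and the CREB coactivators *CRTC2* and *CRTC3*. All 10 were listed among the 13950 genes of a first matrix and the 14020 genes of a second matrix.

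The single-cell libraries were made with TAS-Seq, a method that amplifies cDNA captured on barcoded beads in microwells. In total 5 conditions were profiled, with 1 sample per condition. The cyiPSC were induced pluripotent stem cells that carried an EGFP reporter, and pre-transplant cyiPS-Cart was cartilage grown from such cells in culture medium with growth factors. Post-transplant cyiPS-Cart was that cartilage recovered 4 months after allogeneic transplantation into a chondral defect of a recipient knee, and it shared the EGFP reporter of its donor cells, although the sample label gives the recipient's wild-type genotype. cyAC was intact articular cartilage and cyFT was the fibrous tissue that filled defects left empty, both taken from wild-type monkeys 4 months after surgery. The recipients were male monkeys aged 3 to 4 years, and tissues were minced and digested with Liberase for 120 to 210 min. The paper lists growth factors in the digestion medium of pre-transplant cyiPS-Cart and none in that of cyAC and post-transplant cyiPS-Cart. This difference in handling cannot be told apart from the difference between those conditions. How many animals each library pooled is not named in the sources used here, so no spread between animals could be measured.

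The first matrix held 2500 cyiPSC and 3527 pre-transplant cells, and the second held 320 cells for each of 4 samples (cyiPS-Cart before and after transplantation, cyAC and cyFT). Of the 320 pre-transplant cells in the second matrix, 300 were also in the first, with no differing count. The median cell held 143075 reads in cyiPSC, 59249 in the pre-transplant sample of the first matrix, and 58413.5, 80335.5, 29699 and 27499.5 in the 4 conditions of the second matrix in the order just given. cyiPSC and pre-transplant cells came from 1 pooled library, cyAC and cyFT from another, and post-transplant cells had a library of their own. A difference between libraries therefore cannot be told apart from a difference between their conditions. Reads of the EGFP gene stood at 5504 CPM (reads of a gene per 1000000 reads of the sample) in post-transplant cells and at 0 in cyAC and cyFT. Summed chondrocyte markers reached 33144 to 76667 CPM in the cartilage and repair samples and 75.8 CPM in cyiPSC, whereas summed pluripotency markers reached 359 CPM in cyiPSC and at most 7.71 CPM elsewhere.

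As background, cAMP is made by adenylyl cyclases when ligands such as prostaglandin E2 or parathyroid hormone-related protein bind their receptors, and it activates protein kinase A. Protein kinase A phosphorylates CREB1 and restrains the salt-inducible kinases, which frees the CRTC coactivators to enter the nucleus and switch on CREB target genes. Phosphodiesterases such as PDE4D break cAMP down, and CREM gives rise to both activators and the early repressor ICER. The *NR4A* genes are immediate early genes that respond to cAMP, calcium, growth factors and mechanical stimuli, and the parathyroid hormone-related protein pathway is known for holding back hypertrophy in growth plate cartilage.

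Levels are given as CPM of reads summed over all cells of a sample, with an exact Poisson 95% interval in brackets. Shares of cells carry exact Clopper-Pearson 95% intervals. The reads were not collapsed to molecules, so both kinds of interval cover the counting of reads or cells only. Many reads can come from 1 cell, so the Poisson intervals are narrower than the uncertainty of a level. Whether they overlap describes the reads counted and does not establish an order of conditions. With 1 sample per condition no test between conditions was possible and no p-value is given. A gene was called higher or lower in a comparison when CPM + 1 differed at least 2-fold, among genes that reached 10 CPM, and were read in 10% or more of the cells, in at least 1 of the conditions compared.

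*NR4A1*, which encodes the orphan receptor NUR77, stood lowest in pluripotent cells and highest in the repair tissue and the graft after transplantation. It measured 34.3 CPM [33.7 to 34.9] in cyiPSC, 96.1 CPM [94.9 to 97.4] in pre-transplant cells, 147 CPM [140 to 154] in cyAC, 437 CPM [429 to 444] in post-transplant cells and 455 CPM [443 to 468] in cyFT. The intervals of post-transplant cells and cyFT overlapped, and those of all other neighbours in this order did not. The pre-transplant cells of the second matrix gave 86.5 CPM [82.6 to 90.5].

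*NR4A2*, which encodes NURR1, showed a different order. Its level was 4.65 CPM [4.45 to 4.86] in cyiPSC, 108 CPM [102 to 114] in cyAC, 169 CPM [167 to 171] in pre-transplant cells, 253 CPM [244 to 263] in cyFT and 323 CPM [316 to 329] in post-transplant cells. No 2 neighbouring intervals overlapped. For *NR4A2*, cultured cartilage thus lay above intact cartilage, and for *NR4A1* it lay below.

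*NR4A3*, which encodes NOR1, was the family member for which post-transplant cells did not lie above pre-transplant cells. It measured 0.741 CPM [0.661 to 0.829] in cyiPSC, 9.41 CPM [8.34 to 10.6] in post-transplant cells, 18.2 CPM [17.7 to 18.8] in pre-transplant cells, 23.7 CPM [21.0 to 26.6] in cyAC and 36.2 CPM [32.7 to 39.9] in cyFT. In post-transplant cells 84.0% of its reads came from the 5% of cells with the most *NR4A3* reads, so this level rested on few cells.

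**Figure D1:**
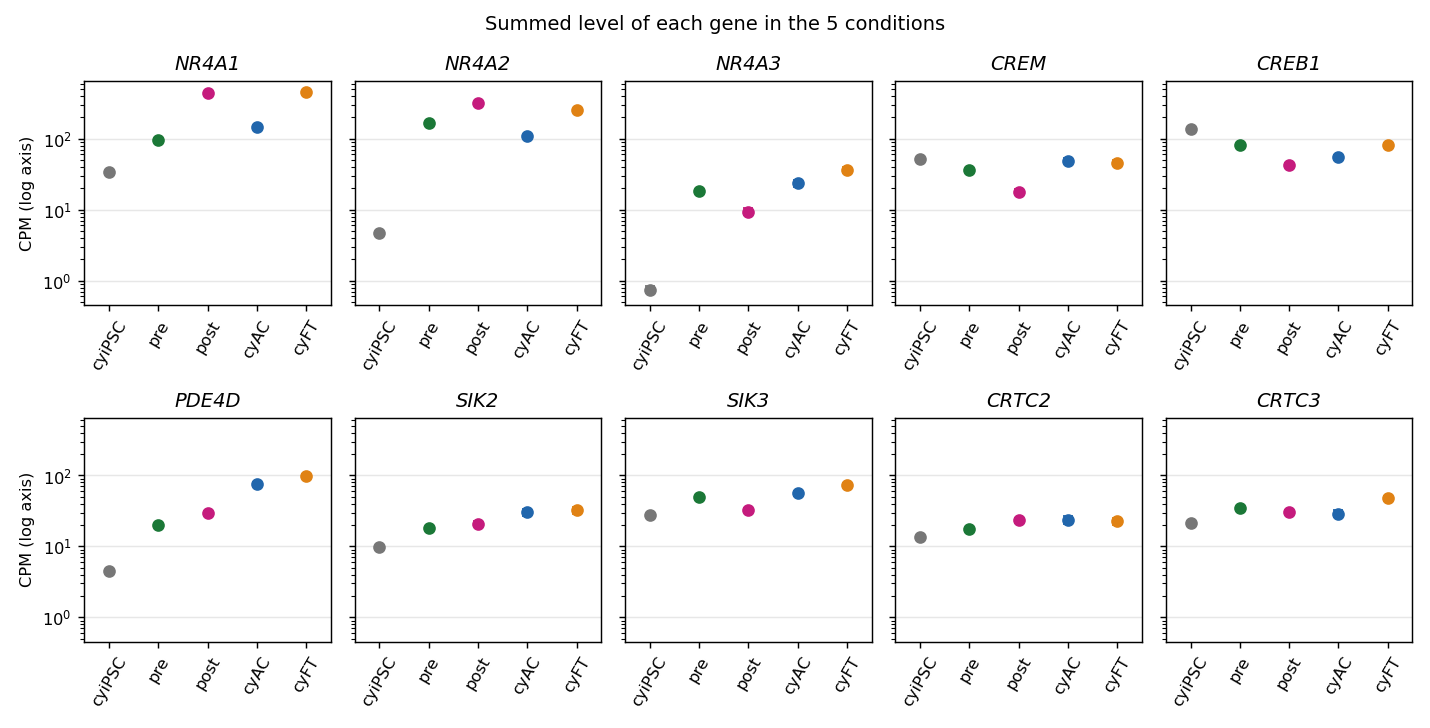
Summed level of each of the 10 genes in CPM (log axis) in cyiPSC, pre-transplant (pre, first matrix) and post-transplant (post) cyiPS-Cart, cyAC and cyFT, with 1 sample per condition. Points are CPM and bars are exact Poisson 95% intervals, which cover counting error only; *NR4A1* runs from 34.3 CPM in cyiPSC to 455 CPM in cyFT, and *CREB1* has its highest point in cyiPSC.

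The share of cells with reads of *NR4A1* differed less than its level. At least 1 read was found in 62.7% of cyiPSC, 53.4% of pre-transplant cells in the first matrix, 49.7% of post-transplant cells [44.1 to 55.3], 40.9% of cyAC and 60.6% of cyFT. Cells with reads held a median of 6 reads in cyiPSC, 7 in pre-transplant cells, 47 in post-transplant cells, 4 in cyAC and 11 in cyFT. Post-transplant cells thus had about as large a share of positive cells as pre-transplant cells, with more reads in each. The authors' background correction sets low counts of highly expressed genes to 0, and the lowest non-zero *NR4A1* count was 8 reads in post-transplant cells and 1 read elsewhere. A common minimum of 10 reads was met by 20% of cyiPSC, 21.1% of pre-transplant cells, 47.5% of post-transplant cells, 15.6% of cyAC and 33.4% of cyFT. With each cell thinned to 1 read depth within its matrix, 34.5% of pre-transplant and 47.8% of post-transplant cells of the second matrix held an *NR4A1* read. The shares of cyAC and cyFT were 28.9% and 57.3%, and cyFT then stood above post-transplant cells. In the thinned first matrix 976 of 2440 cyiPSC and 1533 of 3174 pre-transplant cells held an *NR4A1* read. The larger share was then that of the pre-transplant cells, unlike at the deposited depth.

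Cells with high *NR4A1* were found in every differentiated sample. A level of 500 CPM or more was reached by 3.91% of pre-transplant cells in the first matrix, 26.6% of post-transplant cells, 9.38% of cyAC and 23.1% of cyFT, against 0.08% of cyiPSC. At 2000 CPM or more these shares were 0.113%, 4.38%, 0.313% and 5.31%, and no cyiPSC reached it. The single highest cell stood at 640 CPM in cyiPSC, 2774 CPM in pre-transplant cells, 4191 CPM in post-transplant cells, 3180 CPM in cyAC and 6944 CPM in cyFT. In cyAC the top 5% of cells held 56.3% of the *NR4A1* reads, against 38.5% in post-transplant cells.

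For *NR4A2*, 30.6% of cyiPSC, 68.7% of pre-transplant cells in the first matrix, 65.0% of post-transplant cells, 44.1% of cyAC and 54.1% of cyFT held a read. The cyiPSC with reads held a median of 1 read, and 0.80% of cyiPSC reached 10 reads, against 35.1% of pre-transplant, 43.1% of post-transplant, 13.8% of cyAC and 25.6% of cyFT cells. At 500 CPM or more *NR4A2* was found in 8.87% of pre-transplant, 18.8% of post-transplant, 5.63% of cyAC and 17.5% of cyFT cells. *NR4A3* was read in fewer cells, namely in 4.12% of cyiPSC, 18.1% of pre-transplant, 10.3% of post-transplant, 12.8% of cyAC and 21.3% of cyFT cells.

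**Figure D2:**
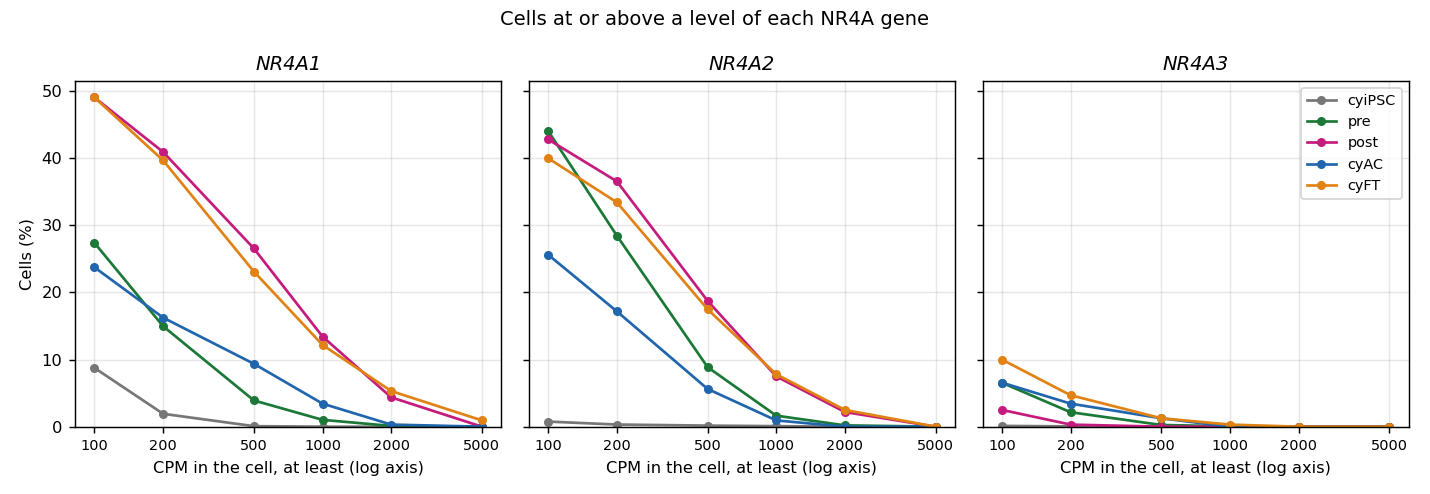
Percentage of cells (y) at or above a level in CPM (x, log axis, 100 to 5000) for *NR4A1*, *NR4A2* and *NR4A3* in the 5 conditions. For *NR4A1* the curves of post-transplant cells and cyFT lie above the others, with 26.6% and 23.1% of cells at 500 CPM or more.

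At the deposited depth, most cells of every sample held reads of at least 1 of the 3 *NR4A* genes. The share was 72.4% in cyiPSC, 85.2% in pre-transplant cells of the first matrix, 76.3% in post-transplant cells, 68.1% in cyAC and 80.3% in cyFT, whereas all 3 genes were read in 1.44%, 8.53%, 7.5%, 4.38% and 11.3% of cells. After thinning, 976 of 2440 cyiPSC held *NR4A1* reads, and of the other 1464 cells 138 held *NR4A2* and 14 *NR4A3* reads. Cells with any of the 3 genes were thus a minority of the thinned cyiPSC. *NR4A1* and *NR4A2* were often found in the same post-transplant cells. There, *NR4A2* was read in 78.0% [70.7 to 84.2] of the 159 cells with *NR4A1* reads and in 52.2% [44.2 to 60.1] of the 161 cells without, and after thinning in 62.7% and 34.1%. In cyFT the shares were 60.3% of 194 cells and 44.4% of 126 cells, or 56.4% and 38.2% after thinning. In cyAC they were 48.9% of 131 cells and 40.7% of 189 cells, and after thinning 32.6% and 32.4%, so that the deposited gap closed at equal depth. The rank correlation of *NR4A1* with *NR4A2* over thinned cells was 0.33 in post-transplant cells, 0.20 in cyFT, 0.14 in pre-transplant cells and 0.03 in both cyAC and cyiPSC, as a description of cells that share a library.

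The genes whose counts followed the *NR4A* genes most closely were ranked next. In post-transplant cells, among 2215 genes with reads in at least 25% of the 320 thinned cells, *NR4A1* was most like *GADD45B* (Spearman rho 0.42), *IER3* (0.39), *BTG2* (0.35), *KLF10* (0.34) and *MCL1* (0.33). *NR4A2* was most like *KLF4* (0.50), *KLF10* (0.44), *GADD45B* (0.43), *MCL1* (0.42) and *SERTAD1* (0.41). *GADD45B* is a stress-inducible gene, *BTG2* an antiproliferative gene, and *KLF4* and *KLF10* encode Krüppel-like transcription factors.

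In the other samples the same measure gave weaker values. In cyFT (288 cells, 2593 genes) *NR4A1* was most like *FOS* (0.32), *CSRNP1* (0.30), *SERTAD1* (0.30), *JUN* (0.29) and *KLF10* (0.29), and *NR4A2* was most like *ID1* (0.31), *TOB1* (0.28), *AEBP1* (0.27), *COL1A2* (0.26) and *KLF4* (0.26). *NR4A3* in cyFT was most like *MEPCE* (0.24), *RBFOX2* (0.23), *KLF4* (0.22), *CALR3* (0.21) and *ERF* (0.21). In cyAC (308 cells, 2408 genes) *NR4A1* was most like *KLF10* (0.23), *COPZ2*, *GADD45B* and *FOSB* (0.20 each) and *SLC44A2* (0.19), and *NR4A2* was most like *LMBRD1* and *MCL1* (0.22 each), *FOSB*, *KLF10* and *NDUFA5* (0.19 each). In pre-transplant cells (3174 cells, 5081 genes) *NR4A1* was most like *NR4A2* (0.14), *DUSP1* (0.13), *ZFP36* (0.11), *BTG2* and *KLF10* (0.10 each), and *NR4A2* was most like *BTG2* (0.18), followed by *BTG1*, *NR4A1*, *CCN1* and *CYP1B1* (0.14 each). In cyiPSC (2440 cells, 7026 genes) a different group led for *NR4A1*, with *CNN1* and *THBS1* (0.24 each) and *RGS16* and *WEE1* (0.23 each) among the highest. *CNN1* encodes calponin, a smooth muscle actin-binding protein, and *THBS1* encodes thrombospondin 1. *NR4A2* in cyiPSC ranked *MBD2* first, at 0.09, followed by *DDX50*, *SGK1*, *MYCBP2* and *FGFR1OP2* (0.08 each).

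*CREB1*, the factor that protein kinase A phosphorylates, had its highest CPM in pluripotent cells. It stood at 136 CPM in cyiPSC, 81.1 CPM in pre-transplant cells of the first matrix, 80.6 CPM in cyFT [75.4 to 86.1], 55.0 CPM in cyAC [50.8 to 59.4] and 43.0 CPM in post-transplant cells [40.7 to 45.4]. The intervals of pre-transplant cells and cyFT overlapped. Reads were found in 95.9% of cyiPSC and 38.1% of post-transplant cells.

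*CREM*, which encodes a CREB relative, was also at its lowest in the graft after transplantation. Its level was 51.4 CPM in cyiPSC, 49.3 CPM in cyAC [45.4 to 53.5], 46.0 CPM in cyFT [42.1 to 50.2], 35.9 CPM in pre-transplant cells of the first matrix and 18.1 CPM in post-transplant cells [16.6 to 19.6]. The interval of cyAC overlapped that of cyFT and held the value of cyiPSC. The share of cells with *CREM* reads was 77.5% in cyiPSC, 42.1% in pre-transplant cells and 14.7% in post-transplant cells. The counts do not separate transcripts of the gene, so activators and the ICER repressor were not told apart.

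*PDE4D*, which encodes a phosphodiesterase specific for cAMP, had levels that ran upward from cyiPSC (4.43 CPM) over pre-transplant cells of the first matrix (19.8 CPM), post-transplant cells (29.9 CPM [28.0 to 31.9]) and cyAC (76.4 CPM [71.5 to 81.6]) to cyFT (99.3 CPM [93.5 to 105]). No 2 neighbouring intervals overlapped. Both tissues that had grown in the host without transplanted cells thus stood above every sample derived from cyiPSC. The share of cells with reads was 13.2% in cyiPSC, 20.6% in post-transplant cells, 30.3% in cyAC and 39.1% in cyFT.

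The kinases and coactivators were lowest in cyiPSC. *SIK2* lay between 9.88 CPM in cyiPSC and 32.3 CPM in cyFT, and *SIK3* between 27.4 CPM in cyiPSC and 73.0 CPM in cyFT. *CRTC2* stood at 13.5 CPM in cyiPSC, 17.5 CPM in pre-transplant cells and 22.5 to 23.5 CPM in post-transplant cells, cyAC and cyFT. *CRTC3* was 21.5 CPM in cyiPSC, 29.0 CPM in cyAC, 30.4 CPM in post-transplant cells, 35.3 CPM in pre-transplant cells and 47.4 CPM in cyFT. *SIK1*, the cAMP-inducible member of the kinase family, was listed in neither matrix. Other genes of the axis, among them *GNAS*, *PRKAR1A* and *CREBBP*, were likewise listed in neither.

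The first comparison asked how these genes differed between cyiPSC and the cartilage made from them. All 3 *NR4A* genes and *PDE4D* were called higher in pre-transplant cyiPS-Cart than in cyiPSC, 4 of 10 genes, and none was called lower. Among all 8571 genes compared, 16.5% were called higher and 37.5% lower. *NR4A2* was 36.3-fold higher (counting interval 34.7 to 38.0), *NR4A3* 24.6-fold (21.9 to 27.7), *PDE4D* 4.46-fold and *NR4A1* 2.80-fold (2.74 to 2.86). *CREB1* and *CREM* gave log2 ratios of -0.74 and -0.51, *SIK2* and *SIK3* 0.84 each, *CRTC3* 0.69 and *CRTC2* 0.35. The median over the 10 genes was 0.84, and that over all genes was -0.61. With the TMM scaling of edgeR the median of all genes moved to 0.09, *SIK2*, *SIK3* and *CRTC3* then passed 2-fold as well (1.46, 1.49 and 1.33), *CREM* changed sign to 0.15 and *CREB1* moved to -0.08, close to no difference. *NR4A2*, *NR4A3*, *PDE4D* and *SIK2* were under 10 CPM in cyiPSC and entered the comparison through the pre-transplant cells.

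The second comparison asked what the graft gained or lost over 4 months in the joint. *NR4A1* was 5.05-fold higher in post-transplant than in pre-transplant cells (4.81 to 5.31), with a log2 ratio of 2.32, and *NR4A2* was 2.02-fold higher (1.95 to 2.11). These were 2 of 10 genes called higher, and none was called lower, against 8.18% higher and 18.6% lower of all 7486 genes compared. *NR4A3* gave a log2 ratio of -0.97, just short of the call, *CREB1* -0.89, *SIK3* -0.73, *CREM* -0.61, *CRTC3* -0.18, *SIK2* -0.07, *CRTC2* 0.31 and *PDE4D* 0.72. The median over the 10 genes was -0.12, and that over all genes was -0.26. Under 13 alternative settings *NR4A1* kept a log2 ratio between 2.17 and 2.55, whereas *NR4A2* ranged from 0.74 to 1.24 and stayed past 2-fold in 5 of them. Those 5 include a filter of 50 CPM and 25% of cells and no filter, which leave the ratio of a gene unchanged. *NR4A3* ranged from -1.35 to -0.60 under the same settings and was called lower in 6 of them. The signs of *SIK2* and *CRTC3* changed to 0.15 and 0.04 with TMM scaling, and that of *SIK2* also to 0.17 with the pre-transplant cells of the first matrix.

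The next comparison set the graft against intact cartilage. *NR4A1* and *NR4A2* were each 2.98-fold higher in post-transplant cells than in cyAC (2.83 to 3.13 and 2.81 to 3.16). *NR4A3* (0.398 times the cyAC level), *CREM* (0.366 times) and *PDE4D* (0.391 times) were called lower. *NR4A3*, at 9.41 CPM in post-transplant cells, entered this comparison and the one before through the other sample, and it did not pass the filter against cyAC after thinning. Thus 2 of 10 genes were called higher and 3 lower, against 10.2% and 14.8% of 7089 genes. The other 5 gave log2 ratios of -0.77 for *SIK3*, -0.52 for *SIK2*, -0.35 for *CREB1*, -0.01 for *CRTC2* and 0.06 for *CRTC3*, and the signs of the last pair changed with the setting. It shares the post-transplant cells with the second comparison.

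The last comparison set the fibrous tissue of empty defects against intact cartilage, with both conditions in 1 library. *NR4A1* was 3.10-fold higher in cyFT (2.94 to 3.28) and *NR4A2* 2.34-fold (2.19 to 2.50). These 2 of 10 genes were called higher and none lower, against 8.96% and 3.64% of 6897 genes. *CRTC3* gave a log2 ratio of 0.69, *NR4A3* 0.59, *CREB1* 0.54, *SIK3* 0.38, *PDE4D* 0.37, *SIK2* 0.09, *CRTC2* -0.06 and *CREM* -0.10. The signs of *SIK2* and *CRTC2* changed with the setting. Both comparisons with intact cartilage share the cyAC cells.

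**Figure D3:**
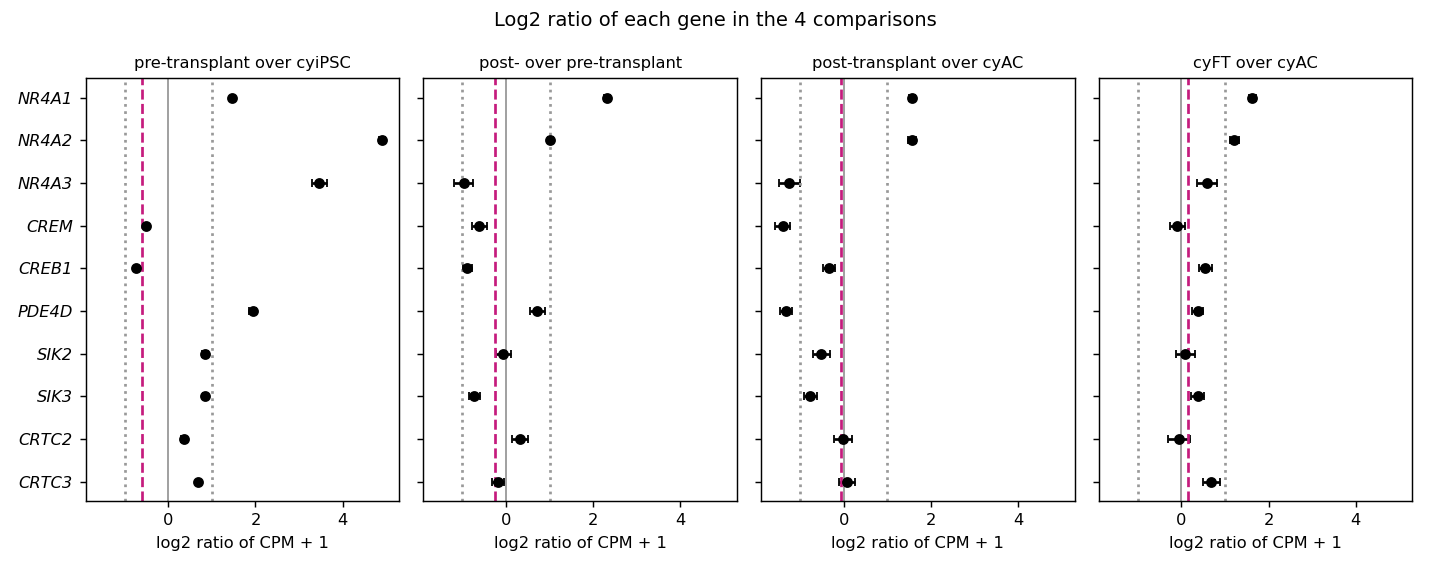
Log2 ratio of CPM + 1 for each gene in the 4 comparisons, first-named condition over the second, with 1 sample per condition. Bars are exact 95% counting intervals, dotted lines mark 2-fold, grey lines mark no difference and dashed lines mark the median of all genes compared; *NR4A1* lies past 2-fold in all 4 panels, from 1.46 to 2.32.

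Markers of other cells and of tissue handling moved with some of these values. Summed immune markers stood at 785 CPM in cyFT, 34.0 CPM in cyAC and 8.78 to 15.2 CPM elsewhere, with 8 of the 9 listed markers read in cyFT and *LYZ* (270 CPM) and *CD14* (247 CPM) leading. Without the cells that held reads of at least 3 immune or endothelial markers, *NR4A1* was 479 CPM in 294 cyFT cells (455 CPM over all cells) and 120 CPM in 313 cyAC cells (147 CPM over all cells), and its log2 ratio was 1.99. Leaving out 7 cyAC cells thus moved its level there by more than leaving out 26 cyFT cells moved that of cyFT. The fibroblast list, whose 6 markers were read in every sample, summed to 76941 CPM in post-transplant cells, 50881 CPM in cyFT, 22971 CPM in pre-transplant cells of the second matrix, 15140 CPM in cyAC and 391 CPM in cyiPSC. It was thus higher in both samples with high *NR4A1* than in the other 3. It was led by *COL3A1* (34538 CPM) in post-transplant cells and by *COL1A2* (18279 CPM) and *COL1A1* (18192 CPM) in cyFT. Reads of *COL1A1* without *COL2A1* were held by 7 post-transplant and 170 cyFT cells, and reads of both by 47 and 33. The sum thus does not rank these samples by cells with *COL1A1*, and its part in the *NR4A* values was not tested. A list of 18 genes known to respond to tissue dissociation and heat shock, of which 10 were listed, summed to 10794 CPM in post-transplant cells, 6053 CPM in cyFT, 3699 CPM in cyAC and 3202 CPM in pre-transplant cells of the second matrix. Its early response members *FOS*, *JUN* and *EGR1* stood at 5742, 1587 and 309 CPM in post-transplant cells, at 1836, 736 and 114 CPM in cyFT and at 754, 247 and 141 CPM in cyAC. By this sum the 4 samples took the same order as by *NR4A1*, except that cyFT lay below post-transplant cells for the sum and was level with them for *NR4A1*. The fifth sample, cyiPSC, broke that order, with a sum of 4394 CPM, of which 4056 CPM were the heat shock gene *HSP90AA1*, and the lowest *NR4A1*. The part of tissue digestion in the *NR4A* values was not tested.

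Beyond the 10 genes, 58 further genes of the cAMP axis were listed. Of the 39 that passed the filter between pre-transplant cells and cyiPSC, 16 were called higher and 9 lower (over all genes 16.5% and 37.5%). Higher were *RGS2* (926 against 29.9 CPM), a regulator of G protein signalling, *FOS*, *PTGS2* (53.5 against 1.70 CPM), the inducible cyclooxygenase of prostaglandin synthesis, and *PTH1R* (26.7 against 0.99 CPM), the parathyroid hormone receptor. Lower were the phosphodiesterase gene *PDE7A* (2.37 against 48.6 CPM) and *AKAP12* (4.68 against 73.8 CPM), an anchor of protein kinase A. *PTGS2* and *PTH1R* were under 10 CPM in cyiPSC, and *PDE7A* and *AKAP12* in pre-transplant cells, so that each entered through the sample where it is high.

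Between post- and pre-transplant cells, 38 of these genes passed, with 11 called higher and 5 lower (over all genes 8.18% and 18.6%). Of the 7 classic CREB targets that passed, 5 were called higher and none lower. *PER1*, a clock gene with CREB sites in its promoter, was at 264 CPM against 9.11 CPM, *FOSB* at 78.5 CPM against 4.41 CPM and *FOS* gave a log2 ratio of 3.20. On the ligand side *PTHLH*, which encodes parathyroid hormone-related protein, was at 136 CPM against 7.98 CPM and *PTGS2* at 520 CPM against 51.6 CPM. The phosphodiesterase gene *PDE7B* was at 36.0 CPM against 7.33 CPM. *PER1*, *FOSB*, *PTHLH* and *PDE7B* were under 10 CPM in pre-transplant cells and entered through the post-transplant cells, where they are high, so these counts describe only the genes that passed. Of 5 cAMP synthesis genes none was called higher and 1 lower. *FOS*, *FOSB* and *DUSP1* belong both to the CREB targets and to the dissociation list.

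Against cyAC, post-transplant cells had 11 of 37 genes higher and 7 lower (over all genes 10.2% and 14.8%), with 5 of 6 classic CREB targets higher. *RGS2* (543 against 63.5 CPM), *FOS* (log2 ratio 2.93), *DUSP1* (1021 against 239 CPM), *PDE4A* (14.5 against 2.79 CPM), *PER1* (264 against 65.6 CPM) and *PRKAR2B* (119 against 30.4 CPM), a regulatory subunit of protein kinase A, led this list. Of the 10 further CREB, CRTC and SIK axis genes 4 were lower and none higher. Between cyFT and cyAC 7 of 34 genes were higher and 1 lower (over all genes 8.96% and 3.64%). *ADCY7*, an adenylyl cyclase, was at 14.3 against 2.20 CPM, *RGS2* at 245 against 63.5 CPM, *PRKAR2B* at 112 against 30.4 CPM, *AKAP12* at 65.8 against 18.1 CPM and *PTH1R* at 204 against 77.9 CPM, whereas *PDE4B* was lower (72.2 against 200 CPM). *PDE4A* and *ADCY7* were under 10 CPM in cyAC and entered through the other sample.

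The relation of the *NR4A* genes to *PRG4* was then described within samples. *PRG4* encodes lubricin, the boundary lubricant that superficial zone chondrocytes secrete, and it stood at 0.874 CPM in cyiPSC, 692 CPM in pre-transplant cells of the first matrix, 1289 CPM in post-transplant cells, 4986 CPM in cyAC and 6419 CPM in cyFT. Across the 5 samples the order of *PRG4* was not that of *NR4A1*, since cyAC was above post-transplant cells for *PRG4* and below for *NR4A1*.

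In post-transplant cyiPS-Cart, 227 cells held *PRG4* reads and 93 did not, with median depths of 84725 and 64430 reads. *NR4A1* stood at 482 CPM in cells with *PRG4* reads and 287 CPM in the rest, a log2 ratio of 0.74, and it was read in 54.2% and 38.7% of them. *NR4A2* stood at 345 and 249 CPM (log2 ratio 0.47) and was read in 68.3% and 57.0%. The log2 ratio was 0.59 for *NR4A3*, 0.91 for *SIK2* (23.5 against 12.0 CPM) and between -0.28 and 0.44 for the other 6 genes. *SIK2* passed 2-fold (1.26) without the cells that held immune or endothelial markers. None of the 10 passed 2-fold over all cells, against 4.74% of all genes higher and 3.34% lower. *FOS* and *JUN*, for comparison, gave -0.08 and -0.10 and *EGR1* 0.63.

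From the lowest to the highest of 4 bins of 80 post-transplant cells ranked by *PRG4* CPM (0, 34.4, 498 and 4259 CPM of *PRG4*), *NR4A1* was 302, 464, 448 and 501 CPM and *NR4A2* was 233, 322, 437 and 271 CPM. The share of cells with *NR4A1* reads was 38.8%, 47.5%, 55% and 57.5% over these bins, in the order of *PRG4*, and that for *NR4A2* was 55%, 67.5%, 70% and 67.5%. The median depth was lowest in the first bin, at 63861 reads against 81353.5 to 92264 in the other 3. *NR4A3* was 6.2, 15.7, 8.6 and 6.7 CPM, with 8.83 CPM in the second bin without 1 cell. In the top 25% against all other cells *NR4A1* was 501 against 413 CPM, and without the 1 cell that held 839 of the 13043 *NR4A1* reads it was 407 against 413 CPM. *NR4A2* was 271 against 341 CPM in the same contrast. *SIK2* (16.1 against 22.6 CPM, log2 ratio -0.46) and *NR4A3* (6.75 against 10.4 CPM, -0.56) turned sign there, and without the cell with the most reads of each the ratios were -0.34 and -0.22. None of the 10 genes passed 2-fold there, against 2.6% higher and 5.1% lower of all genes.

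The Spearman correlation with *PRG4* over the 320 post-transplant cells was 0.12 for *NR4A1*, 0.08 for *NR4A2* and -0.03 for *NR4A3*, and after thinning 0.09, 0.01 and 0.01. *NR4A1* correlated with the read depth of a cell at 0.16. Weak correlations over such sparse counts are given as a description only.

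In cyAC 311 of 320 cells held *PRG4* reads, and the 9 without are too few to compare. The 80 cells with the most *PRG4* were therefore set against the other 240, with median depths of 29047 and 30369.5 reads. *NR4A1* was at 67.9 CPM in the top 25% and 172 CPM in the rest, a log2 ratio of -1.32, and it was read in 33.8% [23.6 to 45.2] and 43.3% [37.0 to 49.9] of these cells. It was the only one of the 10 genes past 2-fold, against 4.79% of all genes higher and 5.96% lower. The shares of cells overlapped in their intervals, and 1 cell outside the top 25% held 327 of the 1734 *NR4A1* reads. Without it the values were 67.9 and 137 CPM and the log2 ratio, -0.9986, no longer passed 2-fold. *NR4A2* was at 105 and 109 CPM, and *NR4A3* gave a log2 ratio of 0.40.

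Over the 4 bins of cyAC cells (76.4, 215, 1845 and 18796 CPM of *PRG4*) *NR4A1* was 148, 259, 85.0 and 67.9 CPM, so that it was lower in both upper bins than in both lower ones. The cell with 327 reads lay in the second bin, whose level was 165 CPM without it. *NR4A2* was 107, 83.1, 148 and 105 CPM, with no order. The dissociation list summed to 4246, 3855, 3405 and 3162 CPM over the same bins of cyAC and to 10762, 9766, 10655 and 11929 CPM over those of post-transplant cells. The correlation over cyAC cells was -0.09 for *NR4A1*, 0.01 for *NR4A2* and 0.01 for *NR4A3*, and after thinning -0.12, 0.00 and -0.01.

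Of the other genes, *PDE4D* and *CREM* were further apart between these cyAC cells than *NR4A2*. *PDE4D* was at 104 CPM in the top 25% and 67.7 CPM in the rest (log2 ratio 0.61), was read in 41.3% and 26.7% of these cells, and correlated with *PRG4* at 0.14 over cells and 0.17 after thinning. *CREM* was at 74.6 and 41.3 CPM (0.84) and passed 2-fold without the cell with the most *CREM* reads (1.01). The log2 ratio was 0.65 for *CREB1*, 0.64 for *SIK3*, 0.31 for *CRTC3*, -0.13 for *CRTC2* and -0.83 for *SIK2*. In post-transplant cells *PDE4D* was 37.9 against 27.0 CPM in the same contrast, but 15.1 against 27.0 CPM without 1 cell that held 186 of its 893 reads.

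**Figure D4:**
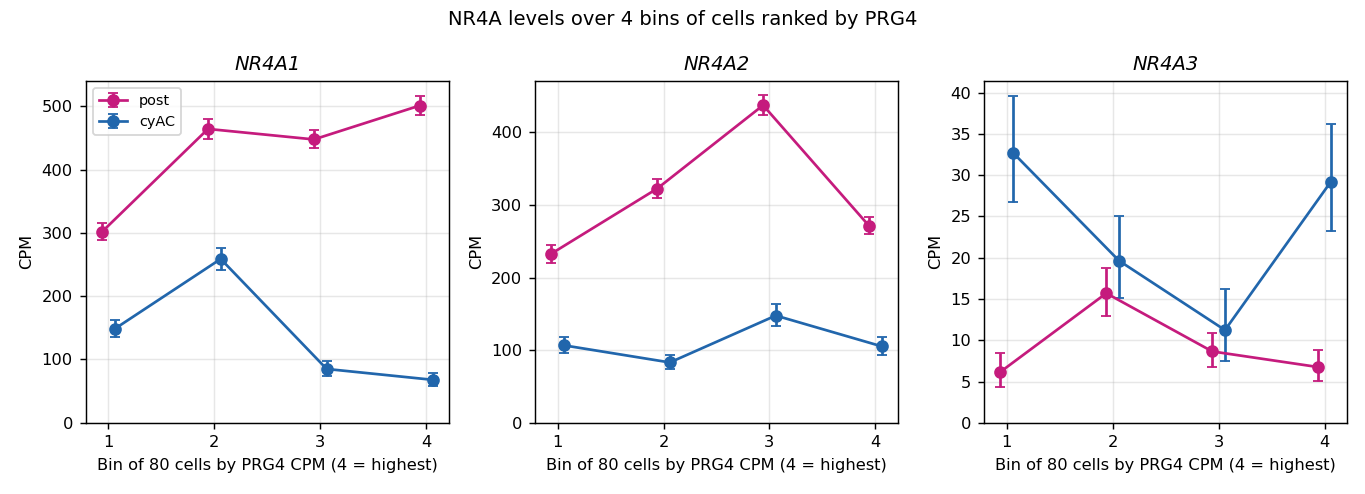
Levels of *NR4A1*, *NR4A2* and *NR4A3* in CPM over 4 bins of 80 cells ranked by *PRG4* CPM (4 = highest), in post-transplant cyiPS-Cart (post) and cyAC. Points are CPM of summed reads and bars exact Poisson 95% intervals, which cover counting error only; *NR4A1* in cyAC lies at 85.0 and 67.9 CPM in the upper bins and at 148 and 259 CPM in the lower ones (165 CPM in the second bin without 1 cell), and in post-transplant cells the lowest bin, at 302 CPM, lies below the other 3.

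In cyFT, where the top 25% by *PRG4* held 25357 CPM of it, *NR4A1* was 520 CPM in the lowest bin and 440, 395 and 494 CPM in the following ones, and *NR4A2* was 199, 363, 233 and 197 CPM. Neither gene followed *PRG4* there.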

How the data were processed

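Bowtie2 2.4.2 was used by the authors to place reads on Ensembl cDNA of Macaca_fascicularis_6.0. They kept barcodes above the knee plot's inflection, split pools by hashtag tags, removed background reads and deposited read counts per gene and cell. The second matrix was reduced by them to 320 cells per sample, and 3 hashtag libraries were left out. The prefix of each cell's name gave its sample. Summed counts per sample were divided by the sample's total to give CPM, and log2 ratios use CPM + 1. The median depth per cell ran from 27499.5 to 143075 reads. For equal depth, cells were thinned to 30967 reads in the first matrix and 12191 in the second, leaving out shallower cells (60 cyiPSC, 353 pre-transplant cells of the first matrix, and 1, 0, 12 and 32 of the 4 samples of the second). Cell numbers were shared by 2 cells between the pre- and post-transplant libraries, by 4 between the pre-transplant library and that of cyAC and cyFT, and by none between cyAC and cyFT.

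The 10 genes and the gene lists were chosen with earlier results of these data known. Pathway genes were named by the largest absolute log2 ratio among those called, at most 6 per comparison, and the genes most like an *NR4A* gene by Spearman correlation over thinned cells, 5 for each *NR4A* gene read in at least 20% of a sample's cells; 1 of them is not reported here. Of the symbols 94.9% were in a RefSeq table of another assembly, used for names only. Alternatives were other scalings (TMM of edgeR 4.0.16), pseudocounts, filters, a mean over cells, thinning and leaving out cells. The calculations, in Python 3.11.15 and R 4.3.3, were tested on simulated data.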

Additional observations from a re-analysis of the deposited data

Results flagged for a closer look

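*CREM* gave ratios of opposite sign in the graft and in intact cartilage when cells were split by *PRG4*. In the 25% of cells with the most *PRG4* against the other cells, its log2 ratio was -0.71 in post-transplant cyiPS-Cart (12.0 against 20.3 CPM) and 0.84 in cyAC (74.6 against 41.3 CPM). With 1 sample per condition the difference between them was not tested. Over 4 bins of 80 cells ranked by *PRG4* *CREM* stood at 20, 22.3, 18.6 and 12.0 CPM in post-transplant cells and at 51.6, 38.4, 32.1 and 74.6 CPM in cyAC. It was read in 12.5%, 17.5%, 15% and 13.8% of post-transplant cells and in 28.8%, 33.8%, 28.8% and 41.3% of cyAC cells over these bins. Over all cells its Spearman correlation with *PRG4* was -0.01 in post-transplant cells and 0.09 in cyAC, and after thinning -0.06 and 0.09. Without the cell with the most *CREM* reads the ratios were -0.60 and 1.01, and the lowest bins, which held those cells, stood at 14.1 CPM in post-transplant cells and 38.2 CPM in cyAC.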

How the results depend on the processing

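No paired analysis was possible because each condition was 1 sample. Among the alternatives, a filter of 50 CPM and 25% of cells and no filter change only which genes pass. The ratio of a gene under them repeats the main value. *NR4A1* stayed past 2-fold in all 4 comparisons under every alternative, with log2 ratios of 1.26 to 2.12 for pre-transplant cells over cyiPSC, 2.17 to 2.55 for post- over pre-transplant cells, 1.46 to 1.88 for post-transplant cells over cyAC and 1.44 to 1.99 for cyFT over cyAC. *NR4A2* ranged from 1.45 to 1.68 and from 1.03 to 1.5 in the last pair of comparisons, *CREM* from -1.57 to -1.08 and *PDE4D* from -1.57 to -1.12 for post-transplant cells over cyAC. *NR4A3* ranged there from -1.67 to -0.79, with 11 of 12 alternatives past 2-fold, of which thinning and the stricter filter left it below the filter on low values.

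The counts of all genes past 2-fold depended on the filter and the pseudocount. For pre-transplant cells over cyiPSC the count was 4620, and 2661 with a filter of 50 CPM and 25% of cells. For post- over pre-transplant cells it was 2005, and 1204 with a pseudocount of 10 CPM, 1035 with the stricter filter and 3033 with none. For post-transplant cells over cyAC it was 1773, and 1135, 923 and 3184 under the same settings. For cyFT over cyAC it was 869, and 450, 353 and 2348. TMM scaling moved the split of higher and lower genes from 1410 and 3210 to 2241 and 1601 for pre-transplant cells over cyiPSC, from 612 and 1393 to 870 and 968 for post- over pre-transplant cells, and from 618 and 251 to 422 and 359 for cyFT over cyAC. Between cells with and without *PRG4* reads the count was 554 in post-transplant cells, and 330 after thinning.

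In cyAC it was 3996 with 9 cells in the smaller class, 1138 after thinning, and 723 for the top 25%. There *NR4A3* (-2.20 between 311 and 9 cells) became 0.40 in the top 25% and 0.67 without the cell with its most reads, *SIK2* (2.19) became -0.83, -0.70 and, thinned, -0.24, *CRTC3* (4.93) became -1.35 when thinned, and *CRTC2* (-3.44) became 0.14 in the top 25% without 1 cell. The values between 311 and 9 cells rest on those 9, the thinned values compare 269 with 39 cells, and those of the top 25% compare 80 with 240. Depth limits the share of cells with reads, which moved after thinning in 53 of 60 values. A minimum of 10 reads, which can only lower a share, moved 59 of them.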

Other observations

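Cells of the fibrous tissue were also sorted by whether they held reads of *COL1A1*, the collagen of fibrous tissue, or *COL2A1*, that of hyaline cartilage. In cyFT 170 cells held *COL1A1* alone, 84 *COL2A1* alone, 33 both and 33 neither. *NR4A1* was 398, 475, 809 and 231 CPM in these classes, and *NR4A2* was 331, 153, 527 and 71.8 CPM. *NR4A2* was thus about as often read in *COL1A1* cells (54.1%) as in *COL2A1* cells (58.3%), with a level above theirs, although the *COL2A1* cells were deeper (median 47802.5 against 21830 reads). *CREM* was read in 46.4% of the *COL2A1* cells [35.5 to 57.6] and 19.4% of the *COL1A1* cells [13.8 to 26.2], with levels of 52.0 and 45.5 CPM.

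Cells with neither collagen held high *PRG4* in both tissues, namely 36189 CPM in the 33 cyFT cells and 12289 CPM in 25 cyAC cells. In those 25 cyAC cells *NR4A1* was 13.9 CPM [7.18 to 24.3] and *PDE4D* was 237 CPM [206 to 272], against 157 and 64.2 CPM in the 276 cyAC cells with *COL2A1* alone. *PDE4D* was read in 52.0% [31.3 to 72.2] and 27.9% [22.7 to 33.6] of them. In the cyFT cells with neither collagen *NR4A1*, at 231 CPM, was below the cells with *COL2A1* alone as well (475 CPM). *PDE4D* differed from cyAC, at 59.4 CPM against 86.4 CPM in cyFT cells with *COL2A1* alone. These classes were chosen after the data were seen, the cells of a class come from 1 library, and no test was made.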
